A study of Caenorhabditis elegans with 4 samples.

Results

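The microRNAs mir-63, mir-64, mir-65, mir-66 and mir-229 of *Caenorhabditis elegans* were described as 1 family across 4 small RNA libraries. Its members were chosen by name and not by their values, although earlier results of these data were known. Members were taken as each row of the count data that holds a hairpin (the folded precursor) or a mature -5p or -3p strand of these 5 genes. They are 5 of the 250 hairpins counted, and their 10 mature strands are part of the 434 mature microRNA names, each of which kept 1 row. Whole worms were pooled as adults of day 0, and each strain gave 1 library. WT was the N2 Bristol strain and *glp-1(e2144)* the strain CF1903, which lacks a germline when raised at a restrictive temperature, and both were labelled as grown at 25 °C. ALG-1/OE was the strain CT20, which carries zaIs5, an array with *alg-1* fused to GFP under the *alg-1* promoter and the *rol-6(su1006)* marker. Its control, ctrl, was the strain PE255 with feIs5 on chromosome X, an array with luciferase fused to GFP under the *sur-5* promoter and the same *rol-6(su1006)* marker. Both of these were labelled as grown at 20 °C. GEO's design text calls CT20 the control, whereas the sample labels and the methods make it the overexpressing strain, and the labels were followed here. Each strain was 1 library, so a difference between strains has no replicate check, strains were not tested against each other, and every interval given is a 95% interval that covers counting error only.

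A microRNA is cut from its hairpin as a duplex of a 5p and a 3p strand, 1 of which is kept by an Argonaute protein such as ALG-1 and guides it to messenger RNAs through the bases near its 5′ end, called the seed. Members of a family share a seed and can in principle bind the same sites. Neighbouring hairpins are often cut from 1 shared transcript, after which each strand has its own rate of processing, loading and decay. In this family the shared seed lies on the 5p strands of mir-64, mir-65, mir-66 and mir-229 and on the 3p strand of mir-63, as background knowledge. Mature sequences were not used here, so the seed was not checked, and the strand with more reads in all 4 libraries is called the major strand below. It was the same strand in each of the 5 hairpins as the one that background knowledge names.

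4 of the genes lie side by side on the plus strand of chromosome III, in the order mir-229, mir-64, mir-65 and mir-66. In the coordinates of the files, which equal those of WBcel235 for 5 of 5 members, cel-mir-229 (WBGene00003322) runs from 2172452 to 2172566, cel-mir-64 (WBGene00003292) from 2172848 to 2172957, cel-mir-65 (WBGene00003293) from 2173002 to 2173101 and cel-mir-66 (WBGene00003294) from 2173108 to 2173206. The cluster spans 755 bases, with gaps of 281, 44 and 6 bases between neighbours, so that mir-65 and mir-66 almost touch. It lies in intron 11 of *gcn-1*, on the same strand as that gene and outside its exons, in an intron of 6429 bases. The fifth member, cel-mir-63 (WBGene00003291), lies on the minus strand of chromosome X from 17598765 to 17598868. It overlaps no protein-coding gene, and the nearest, *lec-9*, is 1618 bases away. None of the 5 hairpins overlaps another annotated hairpin.

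**Figure D1:**
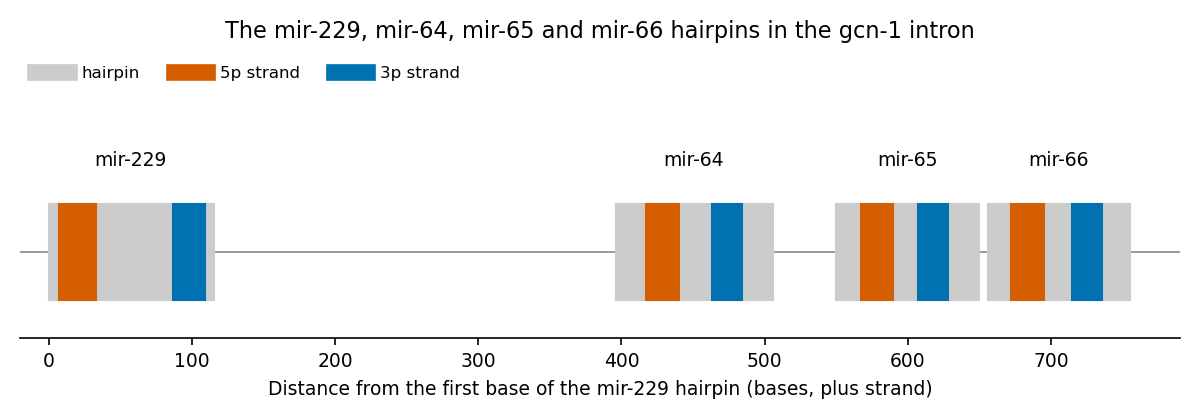
Map of the 4 hairpins on chromosome III, drawn to scale as distance in bases from the start of cel-mir-229, with the mature 5p and 3p strands marked on each. The 4 hairpins fall within 755 bases, and the gap before cel-mir-66 is 6 bases.

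The totals of mature microRNA reads were 211140 for WT, 536907 for *glp-1(e2144)*, 175048 for ctrl and 238172 for ALG-1/OE, and levels are given as reads per 1000000 of these (RPM). Between 215 and 232 mature names had reads in a library. Of the marker microRNAs, the embryo and germline family mir-35 to mir-42 took 11.3% of mature reads in WT, 0.0756% in *glp-1(e2144)*, 6.51% in ctrl and 8.78% in ALG-1/OE. The intestinal microRNA mir-60 was between 2183 and 3785 RPM. The muscle microRNA mir-1 had 9 to 29 reads, the neuronal mir-124 had 0 reads in 3 libraries and 2 in *glp-1(e2144)*, and the developmental timing microRNA lin-4 had 1 to 18. The neuronal lsy-6 had 8 to 23 reads, and let-7, which marks late larvae and adults, 809 to 2867. The defining marker of muscle and those of neurons were thus at or near 0 in libraries labelled as whole organism. In pools of whole worms, fewer cells of a type and less RNA per cell cannot be told apart.

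The 5 genes together made up 7.53% (7.42 to 7.64) of mature reads in WT, 7.57% (7.50 to 7.64) in *glp-1(e2144)*, 5.55% (5.44 to 5.65) in ctrl and 7.17% (7.07 to 7.27) in ALG-1/OE. The family thus took a near equal share in the other 3 strains and the lowest in ctrl, and the intervals of WT and *glp-1(e2144)* overlapped. With mir-35 to mir-42 left out of the total, the shares were 8.49% in WT, 7.58% in *glp-1(e2144)*, 5.93% in ctrl and 7.86% in ALG-1/OE, so the near equality of WT and *glp-1(e2144)* rested on that family being counted, while ctrl stayed lowest. For the size of this family among others, the bantam-like family of mir-58a, mir-80, mir-81 and mir-82 took between 29.1% and 36.2% of mature reads and mir-51 to mir-56 between 1.42% and 2.24%. In both of these families ctrl held the highest share, not the lowest.

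By read number miR-64-5p was the first member in each library. It had 6312 reads in WT, 15908 in *glp-1(e2144)*, 3425 in ctrl and 6000 in ALG-1/OE. These counts stand for 29895, 29629, 19566 and 25192 RPM in the same order, and place miR-64-5p at ranks 11 to 13 of all mature microRNAs. WT and *glp-1(e2144)* did not differ beyond their counting intervals, ALG-1/OE was lower than both, and ctrl was lowest.

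Next was miR-65-5p, with 5321 reads in WT, 13283 in *glp-1(e2144)*, 3100 in ctrl and 5818 in ALG-1/OE. On the RPM scale this was 25201, 24740, 17709 and 24428. Ctrl stood below the other 3 libraries, whose intervals overlapped. miR-64-5p and miR-65-5p are near-identical in sequence as background knowledge, and how reads that match both were assigned is not given in the sources used here, so the split between this pair is uncertain.

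miR-229-5p had 2335 reads in WT, 6294 in *glp-1(e2144)*, 1572 in ctrl and 3153 in ALG-1/OE. Its levels were 11059, 11723, 8980 and 13238 RPM. ALG-1/OE was highest here, WT and *glp-1(e2144)* had overlapping intervals between, and ctrl was again lowest. The direct ratio of *glp-1(e2144)* to WT, given below, had an interval just above 0.

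The last member of the cluster had another order of strains. miR-66-5p had 1039 reads in WT, 3210 in *glp-1(e2144)*, 1016 in ctrl and 1253 in ALG-1/OE, which is 4921, 5979, 5804 and 5261 RPM. It was highest in *glp-1(e2144)* and ctrl, whose intervals overlapped, and lowest in WT. The interval of ALG-1/OE overlapped those of ctrl and of WT, although its direct ratio to ctrl, given below, had an interval just below 0. The low level in ctrl that the other 3 cluster members had was not seen for miR-66-5p.

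The X-linked member was the rarest of the major strands. miR-63-3p had 267 reads in WT, 894 in *glp-1(e2144)*, 213 in ctrl and 237 in ALG-1/OE, or 1265, 1665, 1217 and 995 RPM. It was highest in *glp-1(e2144)*, above the counting intervals of the other 3 libraries, and those 3 overlapped one another. The direct ratios of ALG-1/OE to ctrl and to WT, given below, still had intervals below 0. Its rank among mature microRNAs was 56 in ALG-1/OE, 51 in WT and ctrl, and 40 in *glp-1(e2144)*.

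Of the 5 minor strands, 2 were counted well enough to be followed. miR-229-3p had 546 reads in WT, 882 in *glp-1(e2144)*, 301 in ctrl and 523 in ALG-1/OE, or 2586, 1643, 1720 and 2196 RPM. Its level was above that of miR-63-3p in WT, ctrl and ALG-1/OE. miR-63-5p had 50, 144, 58 and 58 reads in the same order of libraries. The other 3 were rare: miR-64-3p had 17 to 34 reads, miR-66-3p 3 to 6 and miR-65-3p 1 to 5. The last is at or under 3 reads in WT, ctrl and ALG-1/OE, so its ratio is not printed, although it is 1 of the 10 strands in the counts against the cutoff below. The hairpin rows held the same reads as their strands to within 4 fewer and 2 more in the 20 pairs of hairpin and library. Since a hairpin row can hold fewer reads than its strands, these differences do not measure reads elsewhere on the precursors.

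**Figure D2:**
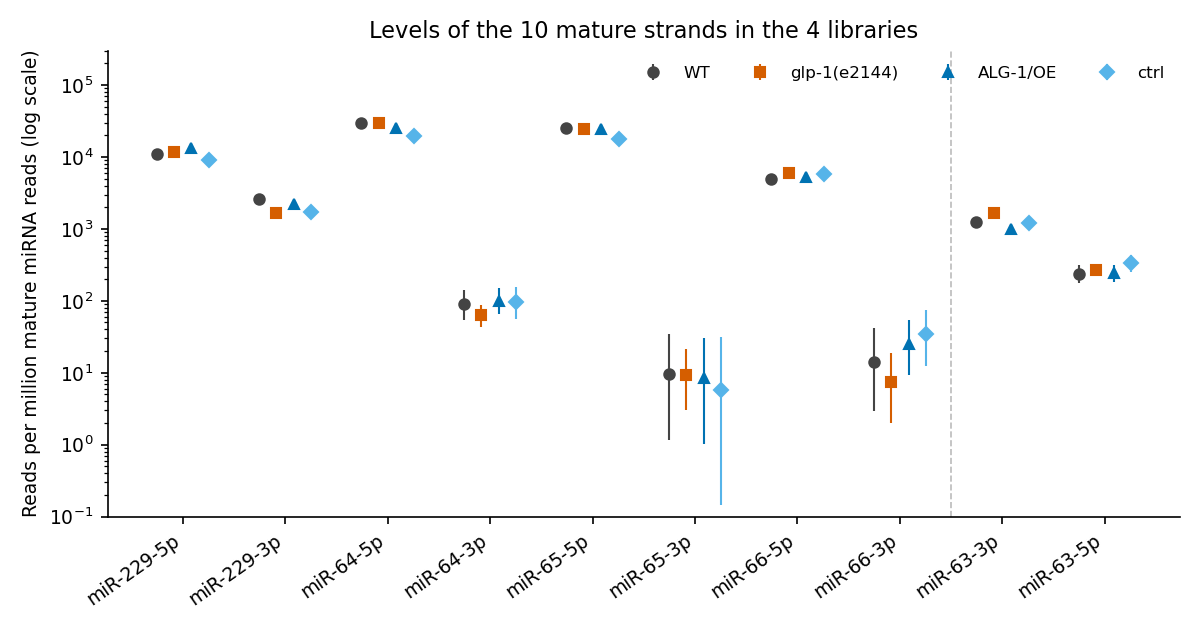
Level of the 10 mature strands in each of the 4 libraries, in RPM on a log axis, with a marker shape and colour for each library, bars for the exact 95% counting interval, and a dashed line between the cluster and mir-63. The strands run from 29895 RPM for miR-64-5p in WT down to 5.71 for miR-65-3p in ctrl, miR-64-5p, miR-65-5p and miR-229-5p are lowest in ctrl, and miR-63-3p is highest in *glp-1(e2144)* at 1665.

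The first comparison, *glp-1(e2144)* against WT, asks how the family stands in worms without a germline at the same temperature. The family total did not differ beyond its counting interval, with a log2 ratio of 0.0086 (-0.018 to 0.035) for the sum of the 10 strands. Within it, miR-63-3p was higher by 0.40 (0.20 to 0.60) and miR-66-5p by 0.28 (0.18 to 0.38), whereas miR-64-5p was at -0.013 (-0.055 to 0.029) and miR-65-5p at -0.027 (-0.073 to 0.019). miR-229-5p was at 0.084 (0.015 to 0.15), and its partner miR-229-3p was lower, at -0.65 (-0.81 to -0.50). Of the other minor strands, miR-63-5p was at 0.18 (-0.29 to 0.67) and miR-64-3p at -0.51 (-1.36 to 0.39), with intervals that include 0. On the scale of mature reads, 0 of the 10 strands passed a log2 ratio of 1 in size, the cutoff of the study's methods, in a comparison where 36.7% of the 199 microRNAs with reads in both libraries did. The median of the 5 major strands was 0.084, against a median of -0.013 for these 199 and of 0.19 for the 78 with at least 50 reads in both libraries.

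These signs near 0 depend on the scale. With the mir-35 to mir-42 family, nearly absent from *glp-1(e2144)*, taken out of the total, every ratio moved by -0.17 and miR-229-5p, the median of the 5 major strands, turned to -0.089. With TMM factors, which moved every ratio up by 0.030, miR-64-5p and miR-65-5p turned to above 0. miR-63-3p and miR-66-5p stayed above 0 and miR-229-3p below 0 under each scaling tried. The study itself scaled by all reads of a sample, which would move all ratios of a comparison by 1 common constant and so can change how many strands pass the cutoff, and those totals were not used here. Differences between members within a library do not depend on any scaling, and are given next.

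miR-63-3p stood 0.38 (0.18 to 0.58) above the summed cluster in *glp-1(e2144)* relative to WT, on the log2 scale. In WT there were 56.2 cluster reads for each miR-63-3p read and in *glp-1(e2144)* 43.3 (40.5 to 46.3). Inside the cluster miR-66-5p stood 0.28 (0.18 to 0.39) above the sum of the other 3, and miR-229-5p 0.10 (0.028 to 0.18) above the sum of miR-64-5p and miR-65-5p. That last pair stood level, with a difference of 0.014 (-0.049 to 0.076). miR-63-3p and miR-66-5p differed by 0.12 (-0.11 to 0.34), an interval that includes 0 and also differences as large as that of miR-66-5p from its own cluster. Of the 10 pairs of major strands, 8 had an interval off 0.

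The second comparison, ALG-1/OE against ctrl, asks how the family stands in worms that carry an *alg-1* transgene. The cluster split. miR-229-5p was higher by 0.56 (0.47 to 0.65) on the log2 scale, miR-65-5p by 0.46 (0.40 to 0.53) and miR-64-5p by 0.36 (0.30 to 0.43), while miR-66-5p was lower, at -0.14 (-0.26 to -0.021), as was the X-linked miR-63-3p, at -0.29 (-0.56 to -0.016). The 10 strands together were higher by 0.37 (0.33 to 0.41). miR-229-3p was higher along with its 5p partner, by 0.35 (0.15 to 0.56), and miR-63-5p was at -0.44 (-0.99 to 0.11). On the scale of mature reads 0 of the 10 strands passed the cutoff, against 18.1% of the 204 microRNAs compared. The median of the 5 major strands was 0.36, against 0.14 for those 204 and -0.031 for the 81 with at least 50 reads in both libraries, whose interquartile range ran from -0.28 to 0.32.

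In scale-free terms miR-63-3p stood -0.68 (-0.95 to -0.40) from the cluster, and the reads of the cluster for each miR-63-3p read were 68.5 (60.2 to 78.2) in ALG-1/OE and 42.8 (37.3 to 49.2) in ctrl. miR-66-5p stood -0.58 (-0.71 to -0.46) from the other 3 cluster members. Both contrasts had the opposite sign to those of *glp-1(e2144)* against WT, which is a pair of comparisons with no library in common, and the intervals of each contrast in the 2 comparisons did not overlap. miR-63-3p and miR-66-5p again had an interval that includes 0, at -0.15 (-0.45 to 0.15). miR-64-5p and miR-65-5p differed by -0.099 (-0.19 to -0.011).

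The third comparison, ctrl against WT, sets 2 controls side by side that differ in strain, transgene and temperature together, so these cannot be told apart. It shares ctrl with the second comparison and WT with the first. miR-64-5p was lower in ctrl, at -0.61 (-0.67 to -0.55), as were miR-65-5p at -0.51 (-0.57 to -0.44) and miR-229-5p at -0.30 (-0.39 to -0.21). miR-66-5p was higher, by 0.24 (0.11 to 0.36), and miR-63-3p was at -0.056 (-0.32 to 0.21). For miR-64-5p this difference is larger in size than that of ALG-1/OE against ctrl, which shares the ctrl library. For miR-65-5p both differences were beyond counting error. Their sizes had overlapping intervals, with 0.46 (0.40 to 0.53) in ALG-1/OE against ctrl. miR-229-3p was lower, at -0.59 (-0.80 to -0.38), and the 10 strands together were at -0.44 (-0.48 to -0.40). Of the 10 strands 1 passed the cutoff, where 21.7% of 198 microRNAs did. It was miR-66-3p, at 1.27 (-0.96 to 3.90) from 6 reads in ctrl and 3 in WT, a difference within counting error.

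miR-66-5p stood 0.75 (0.62 to 0.89) above the other 3 cluster members in ctrl relative to WT, and miR-63-3p 0.39 (0.12 to 0.66) above the cluster. The latter contrast was smaller, at 0.057, with the near-identical miR-64-5p and miR-65-5p left out of the cluster. That setting leaves miR-229-5p, from which miR-63-3p stood 0.24 (-0.038 to 0.53), and miR-66-5p, where the difference had the opposite sign. The pair of miR-63-3p and miR-66-5p was at -0.29 (-0.59 to 0.0014), so that in none of the 3 comparisons did its interval leave 0 out. With TMM factors the sign of miR-63-3p in this comparison turned.

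Because ctrl holds the lowest share of the family, ALG-1/OE was also set against WT, a choice made after the values were seen and one that mixes temperatures. miR-229-5p was then higher by 0.26 (0.18 to 0.34), miR-64-5p was at -0.25 (-0.30 to -0.20), miR-65-5p at -0.045 (-0.099 to 0.0089), miR-66-5p at 0.096 (-0.023 to 0.22) and miR-63-3p at -0.35 (-0.60 to -0.088). miR-229-5p stayed higher and miR-63-3p lower against either reference, whereas miR-64-5p and miR-229-3p turned from higher to lower, the latter to -0.24 (-0.41 to -0.060). The contrast of miR-66-5p with the other 3 cluster members turned from -0.58 to 0.17, and that of miR-63-3p with the cluster went from -0.68 to -0.28. The sign of the miR-66-5p contrast in ALG-1/OE thus rested on which library was the reference. These contrasts follow from those of ALG-1/OE against ctrl and of ctrl against WT, so they are no further check. WT also lacks the array and the *rol-6(su1006)* marker that ALG-1/OE carries. The pair of miR-63-3p and miR-66-5p, whose interval included 0 in each of the 3 comparisons above, stood apart here. Reads of miR-66-5p for each read of miR-63-3p were 3.89 in WT and 5.29 in ALG-1/OE. The counting intervals of these ratios did not overlap.

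**Figure D3:**
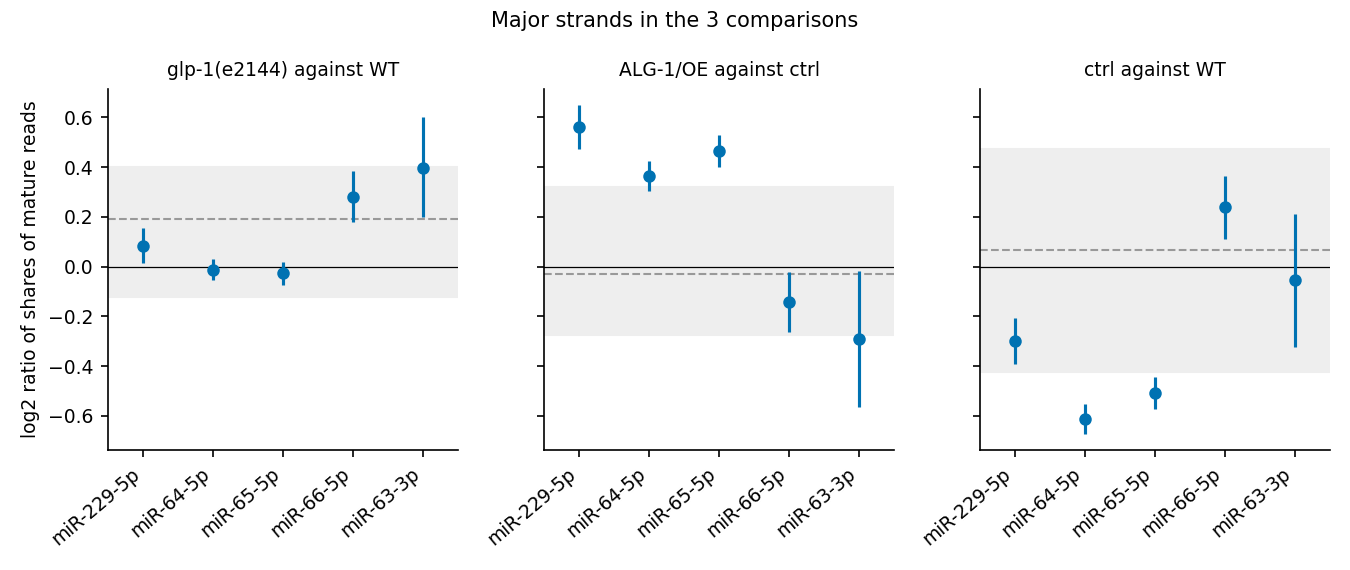
Log2 ratio of the 5 major strands in the 3 comparisons, 1 panel each, with bars for the exact 95% counting interval, a solid line at 0, and a dashed line and grey band for the median and interquartile range of microRNAs with at least 50 reads in both libraries. In *glp-1(e2144)* against WT, miR-66-5p and miR-63-3p lie above the other 3, in ALG-1/OE against ctrl below them, and in ctrl against WT above them. In ctrl against WT the bars of miR-63-3p and miR-229-5p overlap. That panel shares ctrl with the panel of ALG-1/OE and WT with that of *glp-1(e2144)*.

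The proportions of the members differed between libraries. In read number miR-64-5p and miR-65-5p came first in all 4 libraries, followed by miR-229-5p, miR-66-5p and miR-63-3p. Reads of miR-64-5p for each read of miR-65-5p were 1.19 in WT, 1.20 in *glp-1(e2144)* and 1.10 in ctrl, and in ALG-1/OE 1.03 (0.995 to 1.07), where the order of this pair lies within counting error. miR-64-5p gave 41.3% of the major strand reads in WT, 40.2% in *glp-1(e2144)*, 36.7% in ctrl and 36.5% in ALG-1/OE. miR-66-5p gave 6.80% in WT, 8.11% in *glp-1(e2144)*, 10.9% in ctrl and 7.61% in ALG-1/OE. The share of miR-66-5p in ctrl, with an interval of 10.3 to 11.5, lay above those of the other 3 libraries, and the 64-to-66 ratio of reads ran from 6.08 in WT to 3.37 in ctrl. miR-229-5p had its highest share in ALG-1/OE, 19.2% (18.6 to 19.8), against 15.3% in WT. miR-63-3p gave 1.44% to 2.28%.

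**Figure D4:**
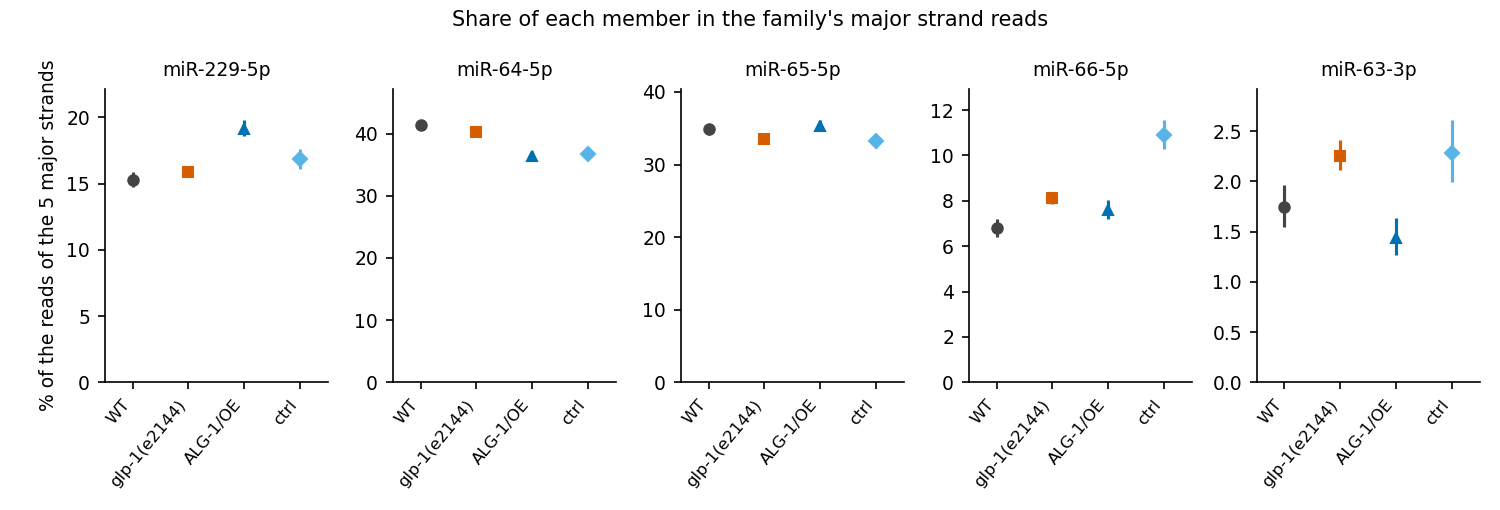
Share of each major strand among the major strand reads of the family, in percent, by library, 1 panel for each member with its own axis from 0 and bars for the exact 95% interval. miR-66-5p goes from 6.80% in WT to 10.9% in ctrl, and miR-229-5p is highest in ALG-1/OE at 19.2%.

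The distance between hairpins did not order these differences. mir-65 and mir-66 are the closest pair at 6 bases, and the sizes of the difference between their log2 ratios were 0.31, 0.61 and 0.75 in the 3 comparisons in the order above. mir-64 and mir-65, 44 bases apart, differed by 0.014, 0.099 and 0.10. mir-229 and mir-64, 281 bases apart, differed by 0.097, 0.20 and 0.31. The split of reads between the near-identical strands of mir-64 and mir-65 is uncertain, and its effect on these differences was not tested. With that pair set aside, the pair 6 bases apart still differed more than the pair 281 bases apart in each of the 3 comparisons. Among other neighbouring hairpins at most 1000 bases apart with at least 50 reads in both libraries, the median size was 0.27 over 3 pairs, 0.063 over 8 pairs and 0.24 over 8 pairs. These ranged up to 0.96, 1.00 and 0.91. The largest was miR-39-3p and miR-40-3p in the first comparison, from 84 and 56 reads in *glp-1(e2144)*. In the others it was miR-250-3p and miR-61-3p. In each comparison only this largest outside pair differed by as much as mir-65 and mir-66. These neighbours were chosen after the values of the family were seen.

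The balance of the 2 strands divided the family into 3 hairpins with 1 strand and 2 with both. The minor strand gave 0.213% to 0.494% of the strand reads of mir-64, 0.0322% to 0.0376% of mir-65 and 0.124% to 0.587% of mir-66. It gave 15.8% (11.9 to 20.3) of mir-63 in WT, 13.9% (11.8 to 16.1) in *glp-1(e2144)*, 21.4% (16.7 to 26.8) in ctrl and 19.7% (15.3 to 24.7) in ALG-1/OE. These intervals overlap except for those of *glp-1(e2144)* and ctrl, a pair that differs in temperature too. For mir-229 the 3p share was 19.0% (17.5 to 20.4) in WT, 12.3% (11.5 to 13.1) in *glp-1(e2144)*, 16.1% (14.4 to 17.8) in ctrl and 14.2% (13.1 to 15.4) in ALG-1/OE. Hairpins with at least 100 reads, of which there were 57 to 63 in a library, had a median major strand share of 98.5% to 99.4%, so mir-63 and mir-229 kept more of their minor strand than the median hairpin.

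Of the 3 comparisons, the strand share of mir-229 differed most between *glp-1(e2144)* and WT. Its 5p share was higher than in WT by 6.66 percentage points (5.07 to 8.31), or by 0.74 (0.57 to 0.91) as the log2 change of 5p over 3p reads. Among the 30 hairpins with at least 10 reads of each strand in both libraries the median change was 0.069, with an interquartile range from -0.51 to 0.78, and mir-229 lay above 70% of them. The change was thus larger than counting error and within that range. In ALG-1/OE against ctrl the 5p share differed by 1.84 points (-0.13 to 3.89), an interval that includes 0, and in ctrl against WT by 2.88 points (0.66 to 5.05). For the other 4 hairpins the intervals of the share difference included 0 in each of the 3 comparisons.

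**Figure D5:**
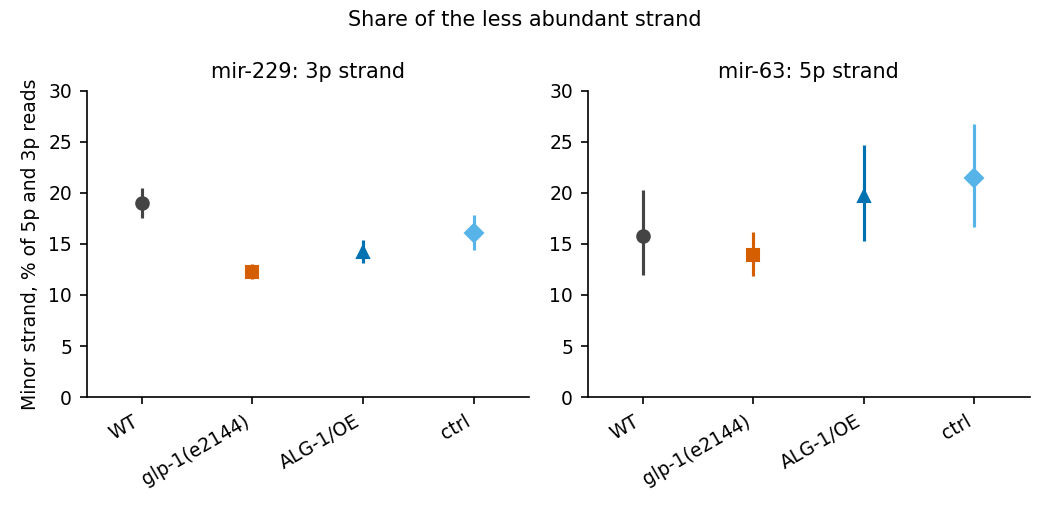
Share of the minor strand among the 5p and 3p reads of mir-63 and mir-229, in percent, by library, with bars for the exact 95% interval. The 3p share of mir-229 goes from 19.0% in WT to 12.3% in *glp-1(e2144)*, and the intervals of mir-63 overlap except for those of *glp-1(e2144)* and ctrl.

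By likeness of levels, the summed cluster and miR-63-3p had different companions. That sum is mostly miR-64-5p and miR-65-5p, which gave 41.3% and 34.8% of the family's major strand reads in WT. It does not stand for miR-66-5p, which was not profiled by itself. Each microRNA outside the family with at least 50 reads in all 4 libraries, 65 in number, was set against the family by the root mean square difference of log2 RPM centred on its mean over the 4 libraries. Nearest to the summed cluster were miR-50-5p at 0.066, miR-90-3p at 0.10 and miR-81-3p at 0.11, with a median of 0.35 over the 65. Nearest to miR-63-3p were miR-60-3p at 0.046, miR-80-3p at 0.056 and miR-34-5p at 0.056, with a median of 0.35. miR-60-3p, from the intestinal mir-60, was at 2823 RPM in WT, 3729 in *glp-1(e2144)*, 2542 in ctrl and 2099 in ALG-1/OE, the same order of strains as miR-63-3p. miR-34-5p had that order too, at 654, 801, 594 and 462 RPM. The step from WT to ctrl was within counting error for miR-63-3p and for miR-60-3p. Their log2 ratios of ctrl against WT were -0.056 (-0.32 to 0.21) and -0.15 (-0.33 to 0.029). The part of the intestinal marker in the levels of miR-63-3p was not tested, and 4 libraries with shared totals give a description only.

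The spread of the members was also set beside that of other families. From lowest to highest the 5 major strands spanned 0.42 in *glp-1(e2144)* against WT and 0.85 in each of the other comparisons on the log2 scale. The 4 of the bantam-like family spanned 0.29, 0.86 and 0.57, and the 6 of mir-51 to mir-56 spanned 2.04, 0.87 and 1.18. In *glp-1(e2144)* against WT the median of mir-35 to mir-42 was -7.24, beside 0.084 for the mir-63 to mir-66 and mir-229 family.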

How the data were processed

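Small RNA was sequenced from 4 libraries, 1 for each strain. The labels name a SOLiD library kit and the methods an Illumina instrument. The authors used the Fastx-ToolKit to trim adapters and drop short reads, aligned the rest with Bowtie2 to ce10 and deposited raw read counts per hairpin and mature strand, without normalization. Versions, the treatment of multiply mapping reads and the use of strand are not given in the sources used here. The coordinates equal those of WBcel235 for 239 of 250 hairpins, and no coordinates were converted. What this means for the counts was not tested.

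Each of the 434 mature names kept the row with most reads (13 names had more than 1 row). Counts were divided by the total of mature reads. Log2 ratios and their differences carry exact conditional intervals and shares Clopper-Pearson intervals, differences of shares Newcombe intervals, each at 95%. PCR reads are not independent molecules, so these cover counting error only. A microRNA was compared where both libraries had reads, with no pseudocount. With 1 library per strain no p-value was computed. The intervals of log2 ratios and of their differences were tested on data simulated with Poisson counting error only, the error they assume. Variation between libraries and PCR duplication were not part of that test.

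Named were all 10 strands of the family, the 3 microRNAs nearest in level to the cluster and to miR-63-3p, and 3 comparison families. The seed strand planned for was replaced by the major strand. Members and lists were chosen with earlier results of these data known. The contrast of mir-66 with its cluster, the neighbouring hairpins and WT as a reference for ALG-1/OE were added after the values were seen. Alternatives changed scaling, pseudocount, rows, cutoff and filter. Columns of the authors' own fold changes were not used. Python 3.11.15, numpy 2.4.6, scipy 1.17.1, pandas 2.3.3, R 4.3.3, edgeR 4.0.16 (TMM factors) and DESeq2 1.42.0 (size factors) were used.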

Additional observations from a re-analysis of the deposited data

How the results depend on the processing

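With 1 library per strain, no replicate could be left out. Nor was a paired analysis possible, for the same reason. Low counts limit miR-64-3p, miR-65-3p and miR-66-3p most. Of the alternatives to the main results, 59 left them within their counting interval (counts of strands within 1.5 times) and 26 did not, which follow. The median of the 5 major strands (log2) in *glp-1(e2144)* against WT was -0.089 without mir-35 to mir-42 in the total and -0.015 from hairpin rows. In ALG-1/OE against ctrl it was 0.19 with TMM factors, 0.29 with median of ratios and -0.045 with WT as reference, and in ctrl against WT -0.15 and -0.40 with the first pair of scalings. TMM factors moved the median of all microRNAs by -0.17 in ALG-1/OE against ctrl and by 0.15 in ctrl against WT. They changed the share of calls that are higher from 62.2% to 45.2% and from 48.8% to 63.8%. The contrast of mir-63 with the cluster was -0.28 in ALG-1/OE with WT as reference, and 0.057 in ctrl against WT without mir-64 and mir-65. That of mir-66 was 0.17 and 0.54 under the same settings. The major strand share of the 5 hairpins summed differed by 1.27 percentage points in *glp-1(e2144)* against WT, by 1.76 with equal weights and by 5.11 without mir-64 and mir-65. In ctrl against WT these were -0.044, -0.65 and 2.60. Strands past the cutoff numbered 1 in *glp-1(e2144)* against WT without mir-35 to mir-42 in the total and 2 at a cutoff of 1.5-fold. In ctrl against WT they numbered 0 with at least 10 reads in both libraries and 4 at 1.5-fold. The family share without mir-35 to mir-42 reads was 8.49% in WT, 5.93% in ctrl and 7.86% in ALG-1/OE. In *glp-1(e2144)* it stayed within its counting interval, at 7.58%. From the major strands alone it was 7.23% in WT, 7.37% in *glp-1(e2144)*, 5.33% in ctrl and 6.91% in ALG-1/OE. The cause was not tested.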
